A study of Mus musculus with 10 samples.

Results

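Mouse tail tip fibroblasts (TTFs) turned into induced embryonic Sertoli-like cells (ieSCs) were set against mouse embryonic fibroblasts (MEFs) across all genes on the array. The comparison takes 6 of the 10 arrays of the series, namely the 4 whose labels name ieSCs from female TTFs and the 2 labelled MEFs. The TTF-derived arrays carry the names 1 and 2, with 2 arrays for each name, written here as 1a, 1b, 2a and 2b. All cells came from a congenic background homozygous for R26-M2rtTA, an allele that drives the doxycycline-responsive activator from the Rosa26 locus. The labels of the ieSCs list 5 transgenes, Nr5a1, Wt1, Dmrt1, Gata4 and Sox9, and those of the MEFs list none. Every culture, MEFs included, had been kept for 2 weeks in F12/DMEM without doxycycline at 20% oxygen and 5% carbon dioxide. The remaining 4 arrays, ieSCs made from MEFs (names 1 and 2, same transgenes), entered the fit and served as the test of where the TTF-derived cells differ from them. The starting TTFs are not among the samples, so the fibroblast of origin and the conversion cannot be told apart in any difference from MEFs. The labels do not state whether arrays that share a name were separate cultures, and p-values may therefore measure technical spread in part.

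Sertoli cells are the somatic support cells of the testis. In the embryo they arise from the surface epithelium of the genital ridge, turn on Sox9 and Dhh, form an epithelium joined by tight junctions and lay down a basement membrane with the cells around them. Fibroblasts are mesenchymal cells that make interstitial collagens, keep a positional code of Hox genes, and lack apical junctions. A conversion of this kind would therefore run from mesenchyme to epithelium, and the gene lists were chosen to cover both.

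The values are the deposited log2 intensities, in which 1 unit is a 2-fold step. About 40% of the features of an array lie below 5, and a value there belongs to the dim end, where no detection flag is given. A gene below 6 is called dim in what follows. For a gene that is dim in either group, the difference is one on the deposited scale and depends on the floor of the array. The 4 TTF-derived arrays correlated at 0.9878 to 0.995 among themselves, the MEF pair at 0.9966, and TTF-derived with MEF arrays at 0.9307 to 0.9408. Against the label female, Xist lay between 3.77 and 4.35 on the TTF-derived arrays and at 9.37 and 9.31 in MEFs. The Y-linked Eif2s3y, whose low level does not go against that label, lay between 3.42 and 4.01 and at 10.29 and 10.33. The summed level of both genes was 4.62 to 5.19 on the TTF-derived arrays and 4.61 to 5.25 in MEF-derived ieSCs. The Y-linked Uty and Kdm5d were dim in MEFs too, at 4.19 to 4.93.

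Of 16650 genes tested, 7512 (45.1%) differed between TTF-derived ieSCs and MEFs at an adjusted p under 0.05. Of these, 3872 were higher (23.3% of the genes tested) and 3640 were lower (21.9%). The median difference over all genes was 0.06, and the median SE was 0.191. All 4 TTF-derived arrays lay above both MEF arrays for 38.4% of genes and below both for 33.7%. A change of at least 2-fold was added for 4293 of the called genes, 2091 higher and 2202 lower. When each array was centred on a list of 13 reference genes, the median of all genes moved to -0.241 and the share of called genes that were higher went from 51.5% to 30.8%. Of the genes named in the text that passed the test, 3 of 192 no longer passed under this centring, and none changed direction with a call.

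The largest rise was that of Prph, which encodes the neuronal intermediate filament peripherin. It read between 16.71 and 17.31 on the TTF-derived arrays and 5.22 and 5.12 in MEFs, a difference of 11.77 ± 0.24 (adjusted p = 4.1e-09). Chil1, a secreted chitinase-like protein, read 14.53 and 14.58 on name 1, 16.34 and 16.47 on name 2, and 5.69 and 5.74 in MEFs (9.77 ± 0.77, adjusted p = 6.5e-06). Both genes were bright on every TTF-derived array and near the dim end in MEFs, and Chil1 also separated the names. The homeobox gene Tlx2 read 13.58, 13.64, 13.56 and 13.54 against 4.53 and 3.98 (9.32 ± 0.24). The other genes among the 12 largest rises were Gm10487, Akr1c18, Krt76, Dmkn, Pramel4, Foxq1, Lgals2, Dhh and Cldn3, with differences from 7.71 to 9.75. Prph, Krt76, Lgals2 and Dhh lie on chromosome 15, whose genes were higher as a group.

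Among genes at 8 or above in both groups, where a fold change can be read, the largest rises were in Tesc, Cp, Ppl, Foxo6, Aldh1a1, Gsta3, F11r, Wt1, Cdsn and Aldh1a7. Tesc, a calcium-binding protein of the embryonic testis, read 16.05, 16.11, 15.62 and 15.71 against 8.70 and 8.84, a 137-fold rise. Ppl and Cdsn, both parts of the cornified envelope or its desmosomes, rose 93.7-fold and 43.6-fold. Cp, the copper-carrying ferroxidase ceruloplasmin, rose 95.5-fold and was higher on name 2 (17.27 and 17.56) than on name 1 (16.55 and 16.52).

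**Figure D1:**
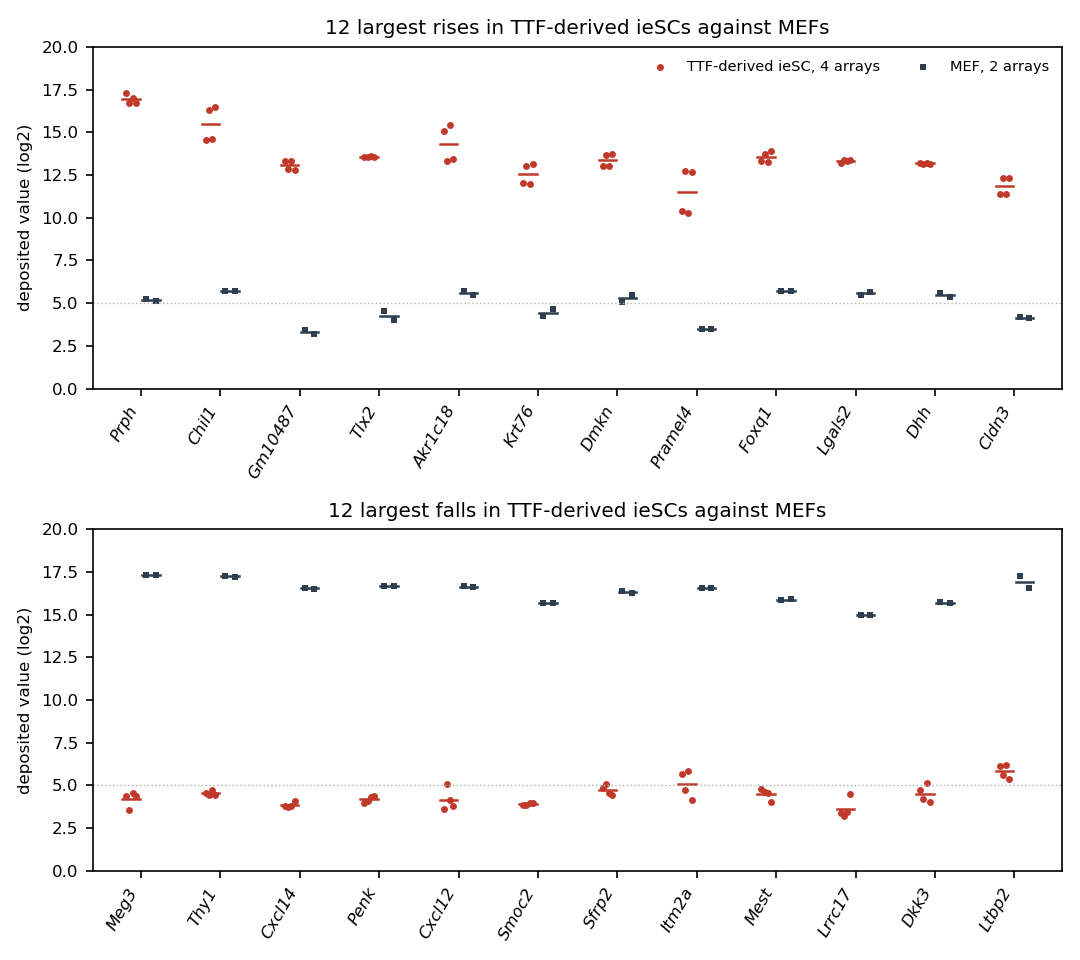
Deposited log2 values of the 12 largest rises (top) and 12 largest falls (bottom) on each array, with TTF-derived ieSCs as circles, MEFs as squares, group means as short lines, and a dotted line at 5. Every TTF-derived circle of the upper panel lies above 10 and every MEF square below 6, and Chil1, Akr1c18 and Pramel4 split into pairs by name.

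The falls were larger still on the deposited scale. Meg3, a maternally expressed non-coding RNA, read 4.39, 4.53, 3.55 and 4.38 against 17.34 and 17.32 (-13.12 ± 0.40, adjusted p = 2.12e-08). Thy1, the fibroblast surface antigen, read 4.53, 4.75, 4.43 and 4.45 against 17.27 and 17.21 (-12.70 ± 0.31). Both genes, picked as the largest falls, lay near the top of the MEF range and were dim on every TTF-derived array. Not every gene that bright in MEFs fell, as the values of Col3a1 given below show. The other leading falls were Cxcl14, Penk, Cxcl12, Smoc2, Sfrp2, Itm2a, Mest, Lrrc17, Dkk3 and Ltbp2, most of which encode secreted proteins. Their differences ran from -12.68 to -11.10. With both groups at 8 or above, the largest falls were in Myl9, Itga11, H19, Postn, Bmp4, Lgr5, Fbln5, Bgn, Fbn2 and Lum. The regulatory light chain Myl9 stood at 8.45, 8.33, 9.12 and 9.33 against 18.20 and 18.16, a 661-fold fall.

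Of the 5 transgene factors, Wt1 rose, Sox9, Gata4 and Nr5a1 fell, and Dmrt1 did not pass the test. Wt1, a zinc finger regulator of gonad and kidney, read 16.73, 16.85, 17.24 and 17.40 against 11.47 and 11.50 (5.57 ± 0.29, 47.5-fold). Sox9, the testis-determining factor of Sertoli cells, read 7.63, 7.54, 7.27 and 7.48 against 11.19 and 11.16 (-3.70 ± 0.19). Gata4 was dim at 5.40 to 5.88 against 7.58 and 7.59 (-1.97 ± 0.35, adjusted p = 0.0013). Wt1 was the only factor with all 4 TTF-derived arrays above both MEF arrays, and the other 4 lay below both. Nr5a1, the orphan receptor of steroid-producing tissue, differed by -0.65 ± 0.14 (adjusted p = 0.00486) and Dmrt1 by -0.37 (adjusted p = 0.108). The features do not separate a transgene transcript from that of the cell's own gene. Wt1os, the RNA transcribed from the other strand beside Wt1, also rose, from 4.41 in MEFs to between 10.85 and 11.14 (6.60 ± 0.32). Them7, the next tested gene beyond Wt1 in map order, stood at 9.11 against 4.83. Wt1os and Them7 were picked after their values were seen, as neighbours of a factor gene. The next tested genes outward, Eif3m and Rcn1, differed by 0.33 (adjusted p = 0.0795) and by -1.02. No source used here says whether the features of Wt1 and Wt1os read only their own strand.

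The embryonic Sertoli list had 33 members tested of 40, of which 14 were higher and 11 lower. Its median of 0.13 was close to the 0.06 of all genes, and it turned to -0.18 after centring on the reference genes. Dhh, the hedgehog ligand of Sertoli cells, read 13.22, 13.22, 13.17 and 13.18 against 5.59 and 5.34 (7.73 ± 0.15, adjusted p = 4.1e-09). Nt5e, an ectonucleotidase, rose from 9.19 and 9.16 to 13.42, 13.46, 14.26 and 14.23 (25.3-fold). Vnn1, a pantetheinase of the fetal testis, rose 8.99-fold. These genes and Tesc rose on every array, while Sox9 and Gata4 of the same list fell. Cyp26b1, which clears retinoic acid in the fetal testis, did not pass (-1.23 ± 0.52, adjusted p = 0.0832), and neither did Fgf9 or Inhbb. Amh, the hormone that marks fetal Sertoli cells, did not pass the filter on dim features, with 3.65 to 4.53 on the TTF-derived arrays and 4.17 and 4.31 in MEFs. The label of Sertoli-like cells was thus met by some markers and not by others. Higher were Dhh, Tesc, Nt5e, Vnn1 and Wt1, the last also a transgene, and lower were Sox9, Gata4 and Nr5a1. Dmrt1, Cyp26b1, Fgf9 and Inhbb did not pass, and Amh, Fshr and Nr0b1 lay below the filter. Of 20 listed secreted products of mature Sertoli cells 14 were tested, with 9 higher and 3 lower (median 1.23). Rhox5, an androgen-regulated homeobox gene, rose 13.8-fold, and the cystatin Cst12 rose from 3.36 and 3.21 to between 8.43 and 9.52. Bmp4 fell 150-fold, and Cxcl12, named above among the leading falls, is also on this list. Shbg, Tsx, Defb19, Serpina5 and Il1a lay below the filter.

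Markers of the mesothelium, the epithelium that covers the gonad and the body cavities, stood higher. Of 19 members tested, 16 were higher and 2 lower, with a median of 3.65. For MEF-derived ieSCs against the same MEF arrays the median was 3.55. Msln (mesothelin) read 17.78, 18.08, 18.23 and 18.09 against 13.37 and 13.36 (25.7-fold). Upk3b, a uroplakin of mesothelial cells, read 15.65, 15.56, 15.27 and 15.30 against 11.07 and 10.78 (23.0-fold). Cldn15 rose from 7.99 and 8.01 to between 14.35 and 14.96. The retinaldehyde dehydrogenase Aldh1a1 rose 58.5-fold, and the sialomucin Podxl went from 4.47 and 4.89 to between 10.63 and 11.06. Aldh1a2, another enzyme of that family, fell (-2.02 ± 0.32). The summed level of the list, which its brightest members dominate, was 19.42 to 19.70 on the TTF-derived arrays against 15.42 and 15.48 in MEFs. Of its 19 members, 17 had all TTF-derived arrays above both MEF arrays and 2 had all below. Over all genes tested these shares were 38.4% and 33.7%. The part of the mesothelial genes in the other epithelial results was not tested.

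Of 26 junction genes, 11 were higher and 3 lower. The median was 0.73, or 0.22 without the name 2 arrays, 0.43 after centring on the reference genes and 2.1 over the 17 genes left by the stricter filter. F11r, the junctional adhesion molecule JAM-A, read 16.47, 16.68, 17.39 and 17.37 against 11.28 and 11.39 (49.8-fold). The claudin Cldn3 rose from 4.17 and 4.14 to 11.38, 11.40, 12.34 and 12.35, Cgn (cingulin) by 5.00 ± 0.40 and the desmosomal Dsp by 5.15 ± 0.22. Both F11r and Cldn3 were higher on name 2 than on name 1. Nectin1 moved the other way, from 11.96 and 11.85 to between 4.09 and 5.44. The adhesion molecules Cdh1 and Epcam, the defining markers of many epithelia, did not pass the filter, at 4.11 to 6.64 and 4.65 to 5.16. Of 13 keratins, 7 were higher and 1 lower (median 1.2). Krt76 rose by 8.11 ± 0.78 from 4.24 and 4.63, Krt13 by 4.63 ± 0.19 and Krt7 by 1.81 ± 0.39. Krt8, the keratin of simple epithelia, rose by 2.88 ± 0.77, but its adjusted p was 0.0756 without the name 2 arrays. Krt18, its usual partner, read 9.33, 9.54, 10.40 and 10.51 against 9.66 and 9.71 and did not pass. With the genes of chromosomes 15 and 19 left out, 4 of 7 keratins were higher and 1 was lower.

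**Figure D2:**
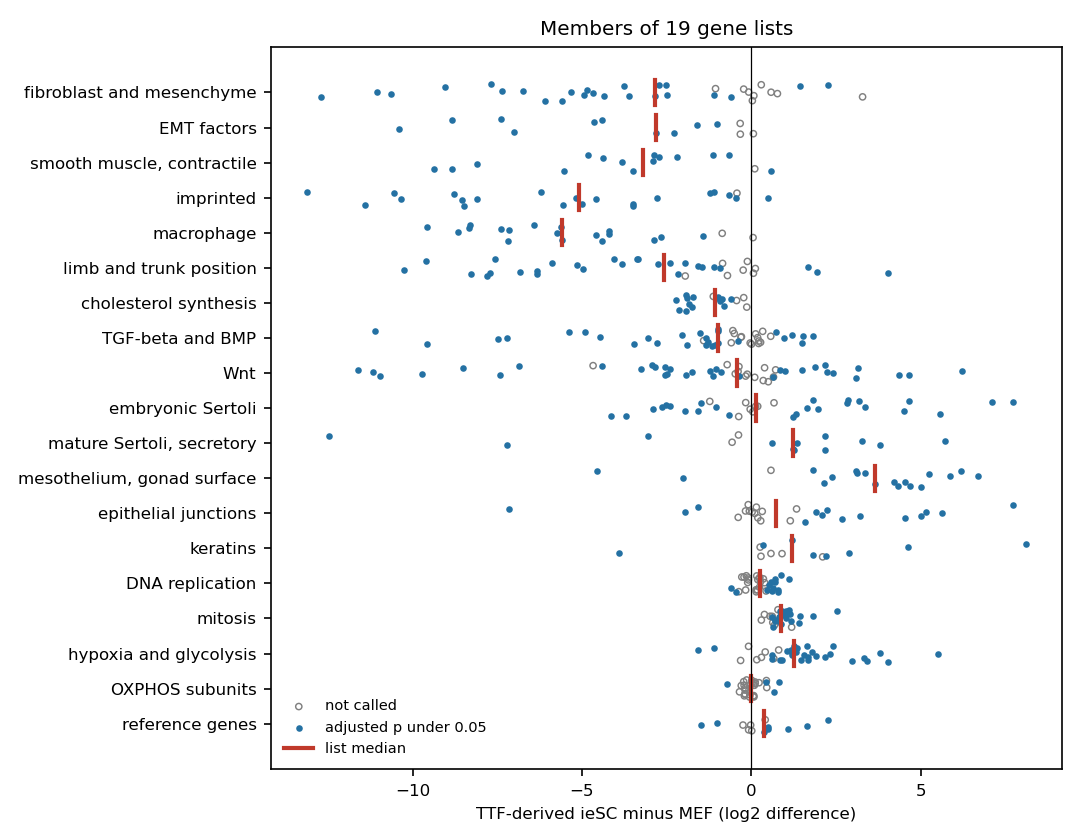
Log2 difference between TTF-derived ieSCs and MEFs for each member of 19 gene lists, filled where the adjusted p was under 0.05 and open otherwise, with the list median as a red bar. The medians run from -5.60 for macrophage genes to 3.65 for mesothelial genes, and most lists hold members on both sides of 0.

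Fibroblast and mesenchyme genes were lower in 22 of 33 cases and higher in 2, with a median of -2.85. Col1a2, a chain of type I collagen, read 8.65 and 8.54 on name 1, 6.68 and 6.76 on name 2, and 18.65 and 18.76 in MEFs (-11.05 ± 0.56). Pdgfra, the receptor that marks fibroblast precursors, read 9.56, 9.38, 10.08 and 9.80 against 13.35 and 13.31 (12.3-fold). The protease Fap and the matrix protein Dpt were dim on all TTF-derived arrays. In bulk RNA, fewer cells of a kind and less RNA per cell cannot be told apart. The loss was not general: Col3a1, the other main fibrillar collagen, read 17.92, 17.96, 17.84 and 18.05 against 17.89 and 17.86 (0.07 ± 0.15, adjusted p = 0.745). Fn1 (0.29 ± 0.12) and Sparc (-0.23 ± 0.17) did not pass either.

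Of 13 regulators of the epithelial to mesenchymal transition, 10 were lower and none was higher. The list median was -2.82, and -2.34 for MEF-derived ieSCs against the same MEF arrays. Twist1 read 3.03, 2.43, 2.58 and 3.22 against 11.65 in both MEF arrays (-8.83 ± 0.47). Prrx2 fell by 10.40 and Foxc2 by 7.01, and the cadherin Cdh11 by 4.64. Zeb2 (adjusted p = 0.396) and the mesenchymal cadherin Cdh2, at 14.33, 14.36, 14.33 and 14.37 against 14.70 and 14.65, did not pass. Contractile genes of smooth muscle were lower in 14 of 16 cases and higher in 1 (median -3.21). Besides Myl9, Cnn1 (calponin) fell 46.3-fold, and Itga8 and Myh11 were dim. Among 20 basement membrane genes the count was 7 higher and 7 lower (median 0.03). Col4a6 read 14.66, 14.68, 14.81 and 14.70 against 10.31 and 10.29 (21.2-fold), Col4a5 rose 4.53-fold and Lama5 4.45-fold. The linker Nid1 fell from 14.55 and 14.63 to between 5.55 and 6.22, while Lamc1 (0.05 ± 0.24) and Hspg2 (0.08 ± 0.13) did not pass.

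Imprinted genes, which are expressed from the chromosome of 1 parent, were lower in 20 of 22 cases and higher in 1, with a median of -5.08. For MEF-derived ieSCs against the same MEF arrays the median was -3.99. At the Dlk1 and Meg3 locus, Begain, Dlk1, Meg3 and Mirg are consecutive in map order among the tested genes. All were dim, with group means of 4.33, 5.09, 4.21 and 5.12 against 12.20, 15.63, 17.33 and 13.90. Wdr25, the tested gene before this run, stood at 8.29 against 7.65. These genes other than Meg3 and Mirg, and Igf2, were added as neighbours after the values were seen. H19 read 10.48, 10.56, 9.07 and 9.21 against 18.39 and 18.33 (370-fold lower), and its neighbour Igf2 6.51 against 12.73. The cell-cycle inhibitor Cdkn1c was dim at 3.86 to 4.39 against 14.47 and 14.35. Grb10, an adaptor that limits growth signals, fell from 12.45 and 12.46 to between 3.50 and 4.21, and Ndn by 5.57. The genes that fell included maternally expressed ones (Meg3, H19 and Cdkn1c) and paternally expressed ones (Dlk1, Mest and Ndn). Plagl1, an imprinted zinc finger gene, fell less, from 16.92 and 16.84 to 13.06, 12.86, 13.87 and 13.71. Peg10, at 5.23 to 5.39 against 5.69 and 5.82, did not pass.

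The Hox genes, which record position along the body axis, are given by cluster. All 8 tested genes of the Hoxb cluster on chromosome 11 and all 8 of the Hoxc cluster on chromosome 15 were lower. Hoxc6 read 4.53, 4.62, 4.18 and 4.78 against 13.41 in both MEF arrays (-8.88 ± 0.45). Hoxb9 read 4.53, 4.67, 4.99 and 4.38 against 11.65 and 11.42 (-6.89 ± 0.32). Of the Hoxb genes 7 were dim and of the Hoxc genes 8, against 0 and 2 in MEFs and 6 and 8 in MEF-derived ieSCs. Of the 10 Hoxa genes of chromosome 6, 3 were higher, none was lower and none was dim, and their median level was 9.88 against 9.32. Hoxa11 read 13.07, 13.07, 12.54 and 12.57 against 10.26 and 10.32 (5.73-fold), Hoxa9 rose 4.42-fold and Hoxa10 2.99-fold. Of 8 Hoxd genes 2 were higher and 2 lower. Counted by paralogue number, of Hox genes 1 to 8, none of 20 was higher and 11 were lower (median -2.54, or -0.85 with chromosomes 15 and 19 left out), and of Hox genes 9 to 13, 5 of 14 were higher and 7 lower (median -0.49, or 0.89). Other factors of limb and trunk position fell too, with 24 of 34 lower and 3 higher. Irx3 was at 3.21 to 3.65 against 11.78 and 11.63, Six2 and Tbx5 were dim, and Tbx3 fell 16.8-fold. Foxf2, a forkhead factor of mesenchyme, rose from 7.49 and 7.65 to between 11.52 and 11.62. Msx1 was at 10.25 to 10.64 against 10.54 and 10.59 (adjusted p = 0.611).

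**Figure D3:**
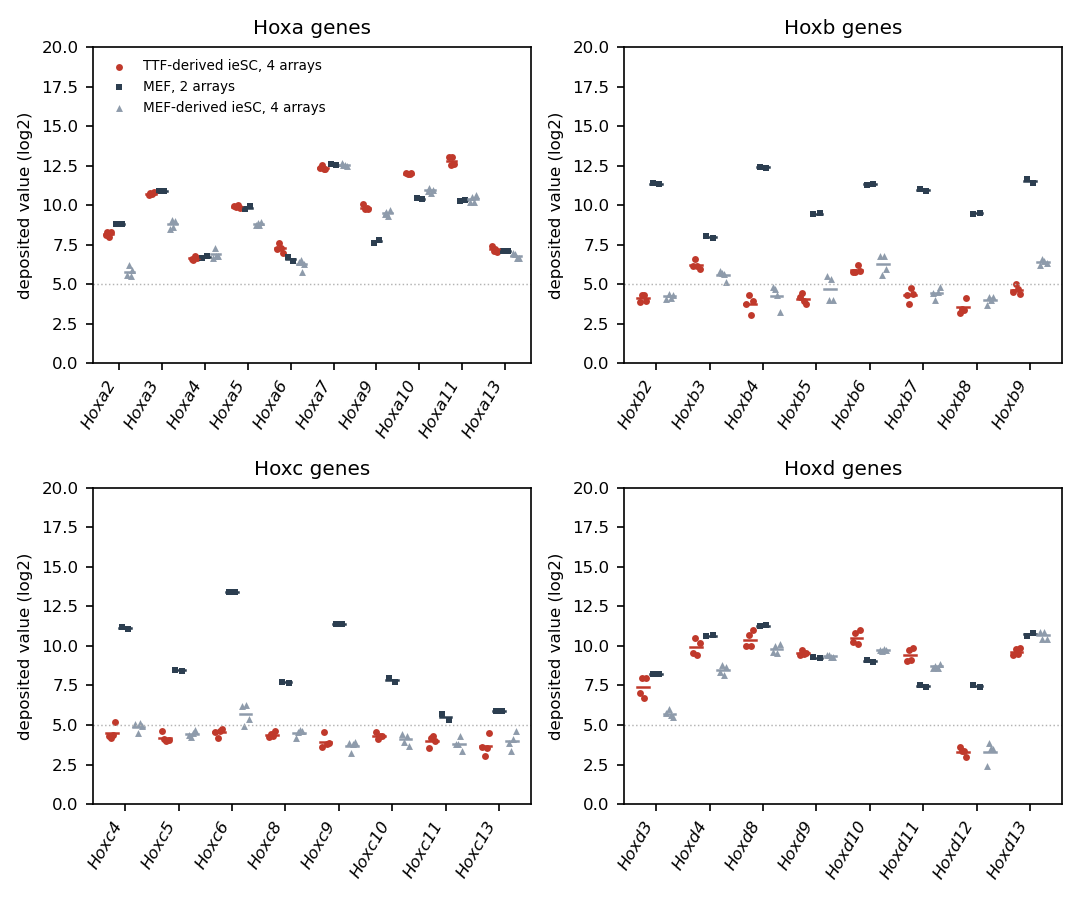
Deposited log2 values of the tested Hox genes of each cluster, ordered by paralogue number, on TTF-derived ieSC (circles), MEF (squares) and MEF-derived ieSC arrays (triangles), with group means as short lines and a dotted line at 5. The Hoxb and Hoxc circles lie at or near the dotted line while the MEF squares lie above, and the Hoxa circles lie near the MEF squares apart from Hoxa9, Hoxa10 and Hoxa11.

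Genes of mitosis were higher in TTF-derived ieSCs than in MEFs in 24 of 32 cases and lower in none (median 0.86). Anln (anillin), which organises the cleavage furrow, read 14.56, 14.39, 14.74 and 14.72 against 12.08 and 12.09 (5.73-fold, adjusted p = 2.63e-06). Top2a, the topoisomerase of dividing cells, read 11.23, 11.10, 11.44 and 11.34 against 10.30 and 10.21 (2.03-fold). Plk1, the polo kinase, rose 2.20-fold and Cenpa, the centromeric histone, 2.70-fold. Mki67 (0.79 ± 0.32, adjusted p = 0.0723), Birc5 and Spc25 did not pass. Of 33 replication genes 11 were higher and 2 lower (median 0.24, which turned to -0.06 after centring on the reference genes, with 2 higher and 7 lower). Tyms, which makes thymidylate, rose 2.16-fold, Pola1 1.84-fold and Mcm7 1.61-fold (not called after centring on the reference genes, adjusted p = 0.0723), and Gins3 fell 1.52-fold. Pcna and Mcm6 did not pass. The 2 inhibitors of the chromosome 4 locus were dim: Cdkn2a, the gene of p16 and p19Arf, read 4.07, 4.29, 4.54 and 4.42 against 13.91 and 13.78 (-9.52 ± 0.19), and Cdkn2b read 3.91, 3.58, 3.92 and 3.49 against 13.27 and 13.19 (-9.50 ± 0.26). Cdkn2c moved the other way, from 10.13 and 10.09 to between 12.93 and 13.34 (8.17-fold), and Cdkn1a did not pass. In map order among the tested genes, Cdkn2a and Cdkn2b lie between Mtap and Zfp352. These flanking genes were taken as neighbours after the values of the pair were seen, and genes not tested were skipped. Mtap was at 11.41 to 11.64 against a MEF mean of 11.67 (adjusted p = 0.455), and Zfp352 at 12.12 against 11.06. The flanking tested genes were thus bright where the pair was dim. Whether the DNA of the pair is present was not tested.

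Against MEF-derived ieSCs, the TTF-derived cells stood higher in most genes of mitosis and replication. Of 16650 genes, 5998 (36.0%) differed between the ieSCs of the different origins, with 2789 (16.8%) higher and 3209 (19.3%) lower in the TTF-derived cells. All 32 mitosis genes were higher (median 3.88), as were 29 of 33 replication genes, with 1 lower (median 1.36). Mki67, the proliferation antigen, stood at 6.49 in MEF-derived ieSCs, a difference of 7.38 from the TTF-derived cells (adjusted p = 1e-07). Top2a stood at 5.45 (difference 5.83) and Plk1 at 7.94 (difference 4.69). Cdkn2a stood at 16.70 in MEF-derived ieSCs, so that the difference was -12.37 (adjusted p = 3.1e-10), and Cdkn2b at 15.33 (-11.60). Cdkn1a, the p21 inhibitor, was lower in TTF-derived cells by 1.99 (adjusted p = 0.00213). Of 24 genes on the list of cell-cycle inhibitors and p53 targets, 5 were higher and 13 lower (median -0.47), where against MEFs 5 were higher and 6 lower (median -0.11). The order of the 3 groups was thus MEF-derived ieSC, MEF, TTF-derived ieSC for Anln, Top2a and Plk1, and the reverse for Cdkn2a and Cdkn2b.

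**Figure D4:**
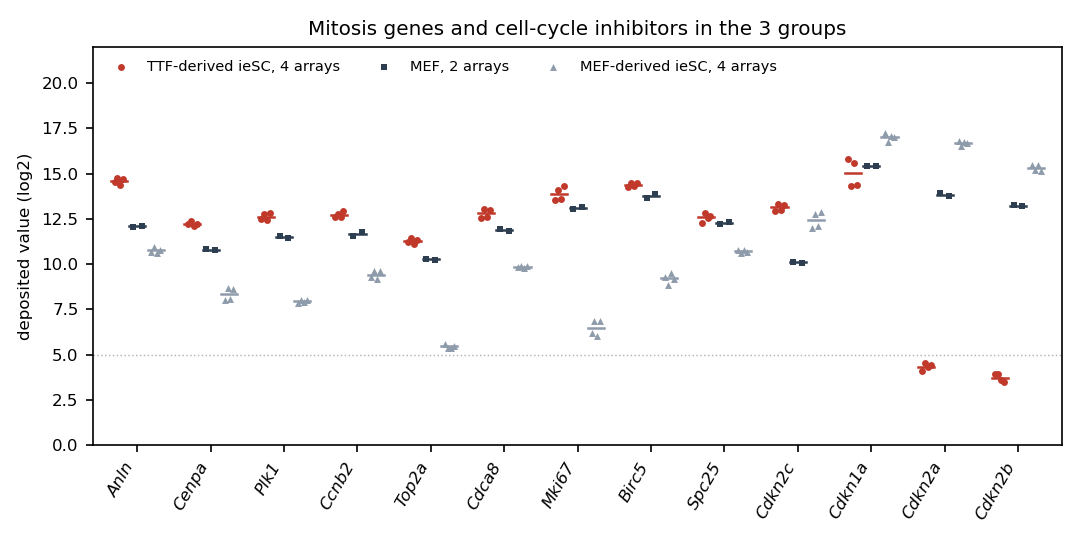
Deposited log2 values of 9 mitosis genes and 4 cell-cycle inhibitors on each array of the 3 groups, with group means as short lines and a dotted line at 5. TTF-derived circles lie highest and MEF-derived ieSC triangles lowest for the mitosis genes, and the TTF-derived circles of Cdkn2a and Cdkn2b lie below 5.

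The promoter of Mcm6, a subunit of the replicative helicase, is shown because replication genes are known targets of E2F factors and this gene carries several matches. It differed by 2.36 between the ieSCs and did not pass against MEFs. The 250 bases before the RefSeq start (GRCm38.p6) are written 5′ to 3′ along the gene, chr1:128359706-128359955, minus strand, with matches in capitals.
Mcm6: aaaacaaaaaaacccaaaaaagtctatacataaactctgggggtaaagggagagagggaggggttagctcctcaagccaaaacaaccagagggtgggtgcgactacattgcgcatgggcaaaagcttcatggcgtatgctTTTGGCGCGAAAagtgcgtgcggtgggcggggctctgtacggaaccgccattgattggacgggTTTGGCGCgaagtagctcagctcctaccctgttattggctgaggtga
The search covered the letters TTTCGCGC, TTTGGCGC and TTTCCCGC on both strands. In Mcm6 the matches begin 110, 106 and 47 bases before the start, and those at 110 and 106 overlap. The letters were found before 8 of 28 replication genes with a promoter in the table (28.6%). They stood before 1 of 26 mitosis genes (3.8%), 0 of 33 hypoxia genes, 2.8% of 13188 tested genes and 1.8% of all genes. Of all 32851 promoters, 1.5% held them. A match describes these letters only.

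Hypoxia and glycolysis genes were higher in 28 of 37 cases and lower in 2 (median 1.26). Cells sense oxygen through prolyl hydroxylases that mark HIF factors for removal, and HIF in turn binds the core letters of its response element before genes of glycolysis, iron handling and cell survival. Egln3, itself a prolyl hydroxylase, read 13.03, 12.89, 13.24 and 13.31 against 7.58 and 7.61 (5.52 ± 0.37). Ero1a, an oxidase of protein folding, read 12.51, 12.30, 12.24 and 12.47 against 9.04 and 8.91 (10.6-fold). Bnip3, which acts in removing mitochondria, read 16.27, 16.25, 16.36 and 16.51 against 14.17 and 14.20 (4.48-fold). The 4 TTF-derived arrays lay above both MEF arrays for these genes, as they did for 38.4% of all genes tested. The genes were picked by small p-values, so close agreement between their arrays comes with the pick. Ndrg1 rose 16.2-fold, Pfkp, the platelet phosphofructokinase, 7.78-fold, and the growth factor Vegfa 3.19-fold, while Gapdh, Hk1 and P4ha2 did not pass. Against MEF-derived ieSCs, Egln3 (-0.17, adjusted p = 0.72) and Bnip3 (-0.21, adjusted p = 0.181) did not pass, Vegfa was lower by 0.88 and Ndrg1 was higher by 1.17. The oxygen level in the labels was the same for all groups.

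The promoters of Egln3, Ero1a and Bnip3 are shown because they had the 3 smallest p-values of the list, and they hold from 1 to 5 matches to the core of the hypoxia response element. Each is the 250 bases before the RefSeq start (GRCm38.p6), written 5′ to 3′ along the gene, with matches in capitals: Egln3 at chr12:54203875-54204124, Ero1a at chr14:45318573-45318822 and Bnip3 at chr7:138909507-138909756, all on the minus strand.
Egln3: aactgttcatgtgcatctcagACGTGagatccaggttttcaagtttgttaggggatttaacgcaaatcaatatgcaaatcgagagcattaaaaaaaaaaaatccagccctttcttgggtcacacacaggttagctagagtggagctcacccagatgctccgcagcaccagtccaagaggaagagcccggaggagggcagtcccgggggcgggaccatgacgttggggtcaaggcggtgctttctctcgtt
Ero1a: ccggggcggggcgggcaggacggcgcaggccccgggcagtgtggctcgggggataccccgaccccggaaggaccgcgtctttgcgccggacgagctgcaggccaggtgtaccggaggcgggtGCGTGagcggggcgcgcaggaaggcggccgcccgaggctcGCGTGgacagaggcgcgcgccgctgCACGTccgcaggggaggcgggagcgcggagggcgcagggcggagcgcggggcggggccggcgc
Bnip3: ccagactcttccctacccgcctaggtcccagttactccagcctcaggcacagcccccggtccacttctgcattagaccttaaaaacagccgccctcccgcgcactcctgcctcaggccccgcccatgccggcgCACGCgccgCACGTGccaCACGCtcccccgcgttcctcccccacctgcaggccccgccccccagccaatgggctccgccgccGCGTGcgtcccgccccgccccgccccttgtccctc
The letters searched were ACGTG and GCGTG on both strands, which overlap each other where matches adjoin. Egln3 holds 1 match, 229 bases before the start, Ero1a 3 and Bnip3 5. Such a match stood before 29 of 33 genes of the list with a promoter (87.9%). Counted over 13188 tested genes the share was 54.7%, over all genes 41.5% and over all promoters 38.6%. A match also stood before 60.7% of replication and 61.5% of mitosis genes. The motif is short and frequent, and the count describes these letters and not binding.

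Few subunits of oxidative phosphorylation passed, with 3 of 29 higher and 1 lower (median -0.01), which became 1 higher and 14 lower after centring on the reference genes. Without chromosomes 15 and 19 the count was 1 higher and 1 lower of 24. Cyc1, on chromosome 15, rose 1.77-fold and Atp5o fell 1.63-fold. Enzymes of cholesterol synthesis were lower in 14 of 18 cases and higher in none (median -1.06). Fdps, the farnesyl diphosphate synthase, read 12.57 and 12.59 on name 1, 13.37 and 13.31 on name 2, and 15.22 and 15.16 in MEFs (4.69-fold lower). Mvk fell 3.85-fold, Cyp51 3.84-fold and the sterol sensor partner Insig1 3.55-fold. Hmgcs1, Sc5d and Ebp did not pass. Name 2 lay above name 1 by a median of 0.45 over this list, and both names lay below MEFs for Fdps, Mvk and Cyp51.

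Among Wnt pathway genes, 13 of 48 were higher and 22 lower (median -0.43). Of all genes tested, 23.3% were higher and 21.9% lower, so the share of Wnt genes that rose was close to that of all genes. The secreted agonists Rspo2 and Rspo3 and the secreted antagonists Sfrp2 and Dkk3 were all dim. Rspo3 read 4.32 or less against 14.65 and 14.60, and the ligand Wnt5a 6.77, 6.82, 6.15 and 6.22 against 13.84 and 13.97. Rspo1, the agonist of the embryonic gonad, rose from 12.10 and 11.91 to 14.99, 14.92, 15.34 and 15.15 (8.54-fold), and so did the ligand Wnt4 (4.47-fold). The receptor Fzd1 fell 5.84-fold, and Fzd4, Fzd7 and Ryk did not pass. Genes of the TGF-beta and BMP family were lower in 22 of 43 cases and higher in 6 (median -0.97). The BMP antagonist Grem1 was dim at 3.49 to 4.24 against 13.56 and 13.42. The receptors divided, as Acvr2a fell 3.76-fold and Acvr2b rose 2.82-fold. Tgfb3, Tgfbr2 and the target Ccn2 did not pass.

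Of 17 insulin-like growth factor genes, 12 were lower and 2 higher. Igfbp3 was dim at 3.87 to 4.62 against 14.94 and 14.97, and Igfbp6, another binding protein, rose from 14.59 and 14.69 to 18.75, 18.53, 18.39 and 18.40 (14.7-fold). Binding proteins of the same family thus moved in opposite directions. In the fibroblast growth factor list, 12 of 23 were lower and 5 higher, where 21.9% of all genes tested were lower and 23.3% higher. The mesenchymal ligands Fgf7 and Fgf10 fell, and the stress-induced hormone Fgf21 rose 19.5-fold, with 10.08, 10.20, 11.17 and 11.03 against 6.35 and 6.31. The hedgehog list had 3 of 14 higher, a share close to that of all genes, and 6 lower. Its ligand Dhh rose, as given above, the target and receptor Ptch1 rose by 1.14 ± 0.22 from a dim 5.48 in MEFs, the coreceptor Cdon rose 4.33-fold, and the coreceptors Boc and Gas1 fell. Ptch1 lay at 6.42 to 6.86 and was lower than in MEF-derived ieSCs by 1.40. For retinoic acid, 5 of 17 were higher and 7 lower. The binding protein Crabp1 was dim at 2.90 to 4.09 against 13.91 and 13.88, and the receptor Rarb fell from 7.54 to a dim 5.15 (group means).

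The steroid list had 4 of 14 higher and 6 lower, where 23.3% of all genes tested were higher and 21.9% lower. Hsd3b1 and Cyp11a1, which act early in steroid synthesis, were dim at 3.21 to 3.72 and 2.58 to 4.16 against 10.20, 10.11, 9.48 and 9.39 in MEFs. Akr1c18, which inactivates progesterone, rose from 5.71 and 5.46 to 15.09, 15.40, 13.35 and 13.44, and Tspo, a mitochondrial outer membrane protein, rose 6.85-fold. Markers of neighbouring gonad cells did not rise as groups: 0 of 8 Leydig genes were higher and 6 lower, and 2 of 13 granulosa genes were higher and 8 lower. Star, the cholesterol carrier of Leydig cells, fell 2.91-fold. The granulosa factor Foxl2 did not pass, at 14.56 to 14.77 against 14.62 and 14.72. Of 11 germ and pluripotency genes none was higher and 2, Ddx4 and Prdm1, were lower, Prdm1 not without MEF array 1 (adjusted p = 0.0655) or with quantile normalization repeated (0.0933).

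Macrophage genes were lower in 18 of 20 cases and higher in none (median -5.60). For MEF-derived ieSCs against the same MEF arrays the median was -5.17. Tyrobp, the adaptor of myeloid receptors, read 3.49, 4.21, 4.18 and 4.57 against 13.66 and 13.70. Ctss, Laptm5, Cd52 and the complement genes C1qa and C1qc were dim on the TTF-derived arrays. The summed level of the list was 12.69 to 13.11 on these arrays and 17.09 and 17.14 in MEFs, and 10 of its 20 members were dim. Macrophage markers were thus bright on the MEF arrays, and their part in the other differences was not tested. Complement genes were lower in 11 of 18 cases and higher in 4, with C1s1, a protease of the classical pathway, up 9.20-fold. Chemokines and cytokines were lower in 13 of 29 cases and higher in 7, where 21.9% of all genes tested were lower and 23.3% higher. Tnf fell from 9.88 and 9.98 to between 5.02 and 5.12, and Lcn2 (lipocalin) rose from 9.46 and 9.57 to between 12.09 and 12.18. Interferon-stimulated genes were lower in 15 of 32 cases and higher in 6, with Ifih1 dim, Bst2 down 8.10-fold and the regulator Irf1 up 2.71-fold.

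Lists of other cell types held members of both directions, as did all genes tested (23.3% higher and 21.9% lower). The shares higher in the muscle, adipocyte and neural lists were close to that of all genes, and their shares lower were above it. Of 16 skin keratinocyte genes, 7 were higher and 1 lower. Dmkn read 13.04, 13.03, 13.69 and 13.71 against 5.09 and 5.48, and Sprr1a 13.13, 13.08, 12.16 and 12.26 against 6.75 and 6.78. The basal keratinocyte factor Trp63 did not pass (0.18 ± 0.17), and Lor and Krt14 did not either. Of 9 endothelial genes 3 were higher and 2 lower, with Esam, an adhesion molecule, up from 5.15 and 4.72 by 6.54 ± 0.34, while Kdr, Pecam1 and Vwf did not pass and Cdh5 lay below the filter. The neural list had 3 of 16 higher and 6 lower, led by Prph and Tlx2, while Nefl, Nefm and Stmn2 fell. Cartilage genes were lower in 7 of 18 cases and higher in 2, with Col2a1 at 3.79 to 4.66 against 13.30 and 13.16. Muscle genes were lower in 6 of 15 cases and higher in 3, with the paired box gene Pax3 up 9.64-fold. Of 8 adipocyte genes 2 were higher and 3 lower. The part of other cell types in these differences was not tested.

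The 16 genes with the largest differences between the ieSCs that also passed against MEFs include Cdkn2a and Cdkn2b. The sodium pump subunit Atp1b1 read 13.90, 13.77, 14.86 and 14.78 on the TTF-derived arrays, 13.17 in both MEF arrays and a mean of 4.28 in MEF-derived ieSCs (10.05, adjusted p = 2.77e-08). Plagl1 was dim at 5.38 in MEF-derived ieSCs against 13.38 and Gadd45g at 6.68 (difference 7.63). The transcription factor Maf, the mitotic kinase Pbk, Ppp2r2b, Depp1 and Fmo2 were also higher, by 6.80 to 6.98. In each of these, the mean of the MEF-derived ieSCs lay below both other groups. On the lower side, the imprinted gene Mest was at 4.02 to 4.77, against 15.83 and 15.91 in MEFs and 12.88 in MEF-derived ieSCs (-8.40). Evc2, a component of the ciliary hedgehog machinery, was at 4.24 to 4.71 against 14.18 and 14.32 and 11.90 (-7.35), and the hyaluronan-degrading Cemip at 4.58 to 5.14 against 12.12 (-7.23). The serpins Serpinb9e, Serpinb9f and Serpinb9g were lower by 7.80, 7.83 and 7.47, and since they are near-identical copies their features may share signal. Evc, which lies beside Evc2 and was added after the values were seen, stood at 4.31 against 11.44 in MEFs, but the median over its features differed by -1.61 (adjusted p = 0.371). Wfs1 (12.55 against 12.69) and Msx1, tested genes nearby in map order, did not pass. Against MEFs, Gadd45g and Maf lost the call without MEF array 1 (adjusted p = 0.0774 and 0.066) and without MEF array 2 (0.0503 and 0.0594), and Serpinb9g, dim in both groups, lost it without MEF array 1 (0.0543). Gadd45g and Maf also lost it without TTF-derived array 2a (0.0518 and 0.0632) and without both name 2 arrays (0.156 and 0.0592), Gadd45g without array 2b (0.0524) and with arrays averaged by name (0.0699), and Maf without array 1b (0.0534). Serpinb9g differed by 0.11 (0.472) with dim values raised to the 40th percentile and by 0.79 (0.0592) after centring on the reference genes.

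The names 1 and 2 differed by a median absolute value of 0.175 over all genes, against 0.108 between arrays of a name. No test was made, since arrays of a name may be 1 culture. Prrx1, a mesenchymal homeobox gene, read 12.43 and 12.45 on name 1, 8.22 and 8.17 on name 2, and 14.71 and 14.75 in MEFs. Spon2 read 13.48 and 13.52, 8.25 and 8.52, and 9.22 and 9.16, so that name 1 lay above and name 2 below MEFs. Kcnmb4, the matrix protein Tnn and the collagen Col6a5 were also higher on name 1. Over the fibroblast list, 26 of 33 genes were higher on name 1 (median -0.75, name 2 minus name 1), and over the mitosis list none of 32 was (median 0.35). Name 1 thus stood higher in most fibroblast genes and lower in the mitosis genes. Higher on name 2 were Sntg1, Gm9758, Speer4a, Speer4b and Speer4d. The last 3 are members of a multigene family and moved together, with 6.47 and 6.41 on name 1 and 9.63 and 9.65 on name 2 for Speer4b. The features of Speer4b gave differences from MEFs of opposite sign, -1.04 and 3.38.

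Genes of chromosomes 15 and 19 were higher as whole chromosomes. This grouping was made after the values were seen and carries no test. Over 403 genes of chromosome 15 at 8 or above in both groups, the median difference from MEFs was 0.87, a fold of 1.82, with quartiles of 0.45 and 1.31. By array, the median was 0.84 on 1a, 0.84 on 1b, 0.88 on 2a and 0.90 on 2b. Of these genes 89.8% had a positive difference and 72.5% were called higher, against 52.8% and 25.6% over all 9999 genes at that level. Chromosome 19 had a median of 0.42 over 367 genes, a fold of 1.34, with 50.7% called higher. The other 17 chromosomes apart from 17 had medians from -0.10 to 0.05, and 16.2% to 26.9% of their genes were called higher. The medians of the MEF arrays differed by -0.02 to 0.01 on any chromosome. Along chromosome 15, in 5 groups of neighbouring genes, the medians were 0.82, 1.06, 0.86, 0.72 and 0.87, and along chromosome 19 they were 0.28, 0.33, 0.65, 0.58 and 0.42. The shift was thus present from end to end of both chromosomes and on all 4 arrays.

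Compared with MEF-derived ieSCs, the same chromosomes were higher by medians of 0.37 and 0.34, and chromosome 17 was lower by 0.32. The MEF-derived ieSCs themselves stood at 0.48 on chromosome 15, 0.09 on 19 and 0.48 on 17 against MEFs, with which both comparisons share the control arrays. TTF-derived ieSCs stood at 0.15 on chromosome 17. With chromosomes 15 and 19 left out, 3266 genes were higher (21.2% of 15421) and 3481 lower (22.6%). The 13 reference genes, of which 6 were called higher and 2 lower, had a median of 0.39, or 0.20 without their members on these chromosomes. The fall of the Hoxc genes took place on a chromosome whose other genes were mostly higher. The copy number of DNA was not tested.

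**Figure D5:**
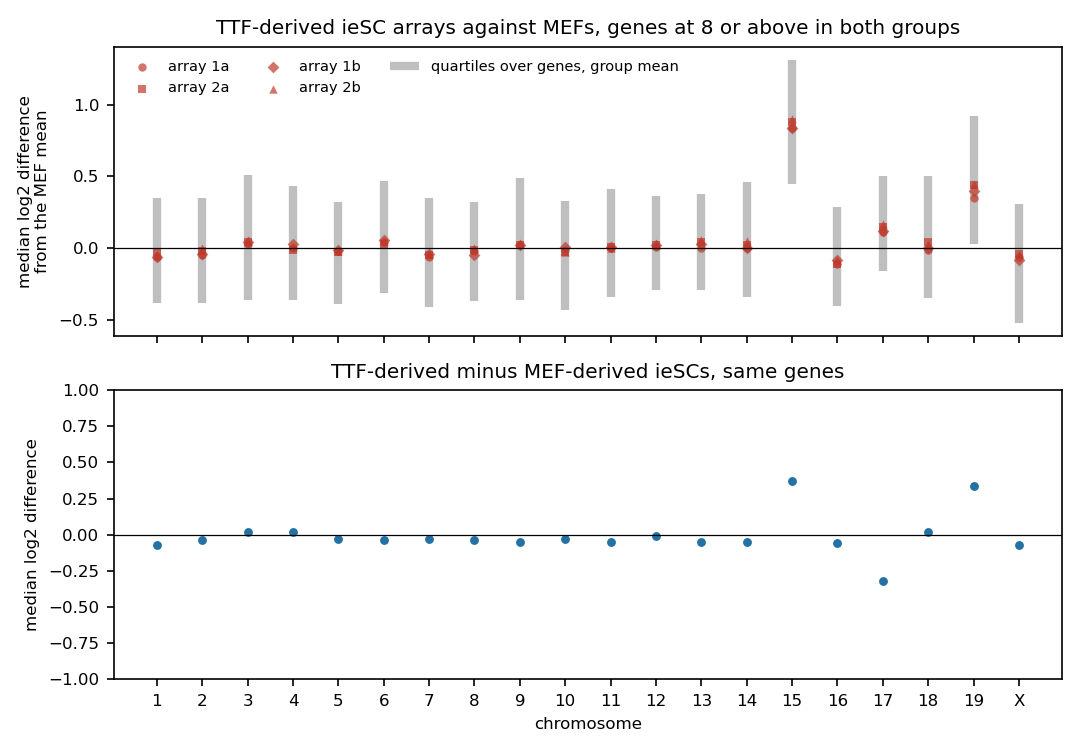
Median log2 difference over genes at 8 or above in both groups, by chromosome: each TTF-derived array against the MEF mean, with bars for the quartiles of the group difference (top), and TTF-derived minus MEF-derived ieSCs (bottom). Chromosome 15 stands at 0.87 and chromosome 19 at 0.42 in the upper panel, and chromosome 17 at -0.32 in the lower.

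Genes that were bright in MEFs and dim in TTF-derived ieSCs were counted across the array. With MEFs above 8 and TTF-derived ieSCs below 6 there were 582 such genes, and 476 of them were also below 6 in MEF-derived ieSCs. In the other direction there were 184, of which 124 were also above 8 in MEF-derived ieSCs. The shares of all genes below 6 or above 8 in MEF-derived ieSCs were not counted, so these overlaps have no background. Both sets were also chosen on the same MEF arrays. In map order among the tested genes, the genes dim in TTF-derived ieSCs were consecutive in 9 runs of at least 3, 30 genes in all. Genes not tested were skipped, so a run need not be unbroken on the chromosome, and no background count of runs was made. These runs held Hoxb5 to Hoxb9, Hoxc4 to Hoxc6, the Dlk1 and Meg3 group, Crmp1 with Evc and Evc2, Cyp2j6, Cyp2j8 and Cyp2j9, Ms4a6c, Ms4a4d and Ms4a6d, Tyrobp with Lrfn3 and Hcst, Igfbp3 with Ramp3 and Adcy1, and Rtl3 with Lpar4 and P2ry10b. Crmp1 was dim by its mean and did not pass the test against MEFs (-3.94, adjusted p = 0.0636).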

How the data were processed

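Expression was measured on 10 Agilent arrays hybridised with Cy3-labelled total RNA, 1 sample per array, extracted with a Qiagen RNeasy kit, per the labels' protocols. The deposited table holds log2 intensities for 62976 features, from 0.288 to 19.02. For the authors' own steps, limma is the tool in the submitters' processing notes, without a version. Background correction and normalization are not given in the sources used here, and the base of the logarithm was taken as 2 from the range. The columns have nearly the same distribution, so a change in total mRNA per cell cannot be seen. The number of arrays limits the precision. Groups came from the source names in the labels.

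Features with 1 symbol (31465, with 31511 unnamed) were updated through RefSeq (GRCm38.p6), which matched the accessions of 29050. A feature was kept when 2 or more arrays had it brighter than their 40th percentile, and the brightest kept feature stood for its gene. Of 71 genes named in the text with several features, 8 had features whose differences spread by 4 or more, and for Speer4b they had opposite signs. Six2 ranged from -7.72 to -0.92 and Dsp from 0.76 to 5.20. With limma 3.58.1 (statmod 1.5.0, R 4.3.3), group means were fitted to all 10 arrays with the shared name as a random block (correlation 0.606). The moderated test was two-sided, with Benjamini-Hochberg adjustment over 16650 genes and a threshold of 0.05. Values are differences ± SE from this fit. The fit was also run on simulated data with normal errors and the same name blocks. Those data share the assumptions of the fit, so they cannot show whether it suits these arrays.

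The members and the 42 gene lists (891 genes, 798 tested) were chosen with earlier results of these data known. Lists are described by counts and medians without a test. Genes were named by rule: the factors, the 12 largest rises and falls with arrays on the same side, the 10 largest each way at 8 or above in both groups, in each list the 6 members of smallest p and the 3 brightest that did not pass, 8 each way between the ieSCs among genes called in both comparisons, 5 each way between the names at 8 or above, and the sex-linked genes. Both ieSC groups share the MEF arrays as controls, so their differences from MEFs are only set side by side. Alternatives covered the filter, features, scaling, block, variance model and left-out arrays. Sequences and gene order are from RefSeq (GRCm38.p6), with neighbours taken among tested genes only.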

Additional observations from a re-analysis of the deposited data

Results flagged for a closer look

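Among 227 genes of the text with a value on each array, the reading of 1 TTF-derived array lay far from the other 3 for 2 genes. Meg3 read 3.55 on array 2a and 4.38 to 4.53 on the others, all at the dim end, and Foxf2 read 11.52 on array 1a and 11.61 to 11.62 on the others. Chance flags about 1 in 20 groups of 4 independent values. These arrays come in pairs by name, so that rate need not hold here.

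For 11 genes the ieSC groups were called in opposite directions against the shared MEF arrays, and the direct test between them passed. TTF-derived ieSCs were higher than MEF-derived ones by 3.84 for Anln, 3.89 for Cenpa, 4.69 for Plk1, 5.83 for Top2a, 6.97 for Pbk, 1.21 for Mcm7 and 1.94 for Pola1, all genes of mitosis or replication. They were also higher by 10.05 for Atp1b1 and 6.80 for Ppp2r2b. The differences of Cdkn2a and Cdkn2b were -12.37 and -11.60.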

How the results depend on the processing

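The count of genes called against MEFs was 7512 and stayed within 1.5 times of that, between 6729 and 9838, under each change of filter, feature, scaling, block, variance model or arrays that was run. It was 4293 when a 2-fold change was also asked for. Leaving out 1 array at a time gave 6729 to 7304 calls against MEFs and 5417 to 5773 against MEF-derived ieSCs, where all arrays gave 5998. Asking for a 2-fold change there left 2241. Centring on the reference genes moved the share of higher calls from 51.5% to 30.8% against MEFs and from 46.5% to 72.0% against MEF-derived ieSCs. The numbers 1 and 2 are shared by both kinds of ieSC, and the differences between names correlated at 0.297 across 16650 genes. With only 2 numbers they cannot be taken as pairs. The fit with the number as a replicate block called 9442 genes between the ieSCs, on 8 arrays. The MEF arrays carry no number, so no such fit was made against MEFs.

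Of 192 called genes named in the text, 182 kept the call and the direction in each of 19 alternatives in which they were tested. Spon2, not called with all arrays, was called lower at -0.81 without the name 1 arrays. Some list medians crossed 0. After centring on the reference genes, those of embryonic Sertoli genes went from 0.13 to -0.18, of chemokines and cytokines from 0.16 to -0.15 and of muscle genes from 0.1 to -0.21. Without the name 1 arrays, chemokines stood at -0.44 and muscle genes at -0.15. Without the name 2 arrays, cell-cycle inhibitors went from -0.11 to 0.18 and endothelial genes from -0.24 to 0.11. With the stricter filter, Hox genes 9 to 13 went from -0.49 to 0.21, endothelial genes to 0.1 and muscle genes to -0.62. Hox genes 9 to 13 stood at 0.89 without chromosomes 15 and 19, an alternative chosen after seeing the data. Every other median that crossed 0 was under 0.1 in size on at least 1 side. Of 38 lists with a median of at least 0.1 in size, 25 had it moved by over 1.5 times, with its sign kept, under at least 1 alternative, 12 of them after centring on the reference genes and 8 without the name 2 arrays. The cause was not tested. With no detection flags, differences against dim values are limited by the floor of the arrays.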
